A study of Mus musculus with 12 samples.

Results

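Glucocorticoids, the steroid hormones of the adrenal cortex, act in liver through the glucocorticoid receptor (GR), a transcription factor that binds short palindromic DNA elements and switches on nearby genes. A small set of genes is used across tissues as a readout of that switch. Its members include the feedback regulator Fkbp5, the anti-inflammatory factor Tsc22d3, the kinase Sgk1 and the metal-binding Mt1 and Mt2. Several of them also answer to other signals: insulin and fasting act on Igfbp1, and zinc, through the metal sensor MTF1, acts on the metallothioneins. The report follows 10 such genes, listed by name, in livers that lack GR: Fkbp5, Tsc22d3, Sgk1, Zbtb16, Klf9, Errfi1, Lpin1, Igfbp1, Mt1 and Mt2. They are classical readouts of the receptor and were picked by name, with earlier results of these data known. Of the 10, 9 were found on the array, among 28781 genes named there. They had 19 probes, of which 18 were tested, out of 26593 tested probes in all. Zbtb16 was matched to no probe by symbol, older symbol, description or accession and is not analysed here.

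The series holds liver RNA from 12 samples, each on its own one-colour Agilent array. Male C57BL/6 mice, 3 months old, lacked GR in the liver in every group. They received an adeno-associated virus with human GR beta (AAV-hGRB, 4 samples), an adeno-associated virus with GFP (AAV-GFP, 4 samples) or phosphate-buffered saline (PBS, 4 samples). GR beta is a splice form of the human receptor that does not bind glucocorticoid hormones. AAV-hGRB against AAV-GFP therefore asks what GR beta does to these genes, and AAV-GFP against PBS what the vector does. AAV-hGRB against PBS combines both. Where 3 values are given in a row below, they follow this order of comparisons. Every group lacks liver GR and no steroid treatment is named, so the effect of losing GR and the response to hormone cannot be read from these data. The labels give no promoter for the knockout or the vectors, no dose and no time after injection, and they number the replicates without stating that these are separate animals. The p-values then measure the spread between these samples. Whole liver was profiled, so fewer cells of a type and less RNA per cell cannot be told apart.

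A level here is log2 intensity minus the array's own 75th percentile, so 0 marks that percentile. Levels of different probes are not on a common scale and are compared only within a probe. The arrays were unequal in brightness, with 54.89 to 66.35% of probes well above background and a log2 75th percentile of 7.709 (AAV-GFP replicate 3, the dimmest array) to 9.223. They were laid on 6 slides, 2 of which held all 3 groups. Nr3c1, which encodes GR, had 4 probes, and its brightest stood at 0.40 ± 0.16 with AAV-hGRB, 0.34 ± 0.20 with AAV-GFP and 0.37 ± 0.15 with PBS (SD, n = 4). The faintest was well above background on 3 of 4 AAV-hGRB arrays, 1 of 4 AAV-GFP arrays and 1 of 4 PBS arrays. No source used here says that a probe lies in the deleted stretch, and whether the mouse probes also read the human transgene was not tested, so these values are no check of the knockout or the vector. The tissue label fits its markers, since all 10 tested hepatocyte genes were well above background on all 12 arrays.

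DNA sequence at the starts of the genes was searched for elements of these signals. Windows of 300 bases, 250 before and 50 after each annotated start, were taken from RefSeq (GRCm38.p6) and searched on both strands. Only exact letters were searched, and sequence outside the windows was not. A window without a match therefore does not show that a gene lacks the element. All 9 genes on the array had a window, 17 in all. The palindromic GR element was searched as the hexamer AGAACA, 3 free bases and the hexamer's reverse complement TGTTCT. It occurred in 3 of 32851 mouse windows (0.00913%), and 1 of the 3 was a window of Sgk1. The hexamer alone, of which each palindrome holds 2, is common: it lay in 19.0% of all windows and in 5 of the 17 windows of the set, which belong to Tsc22d3, Sgk1 and Lpin1. For Sgk1, the 250 bases upstream of that start (chr10:21993640-21993889, plus strand) are shown with the palindrome in capitals, from position -189 to -175.
Sgk1 upstream: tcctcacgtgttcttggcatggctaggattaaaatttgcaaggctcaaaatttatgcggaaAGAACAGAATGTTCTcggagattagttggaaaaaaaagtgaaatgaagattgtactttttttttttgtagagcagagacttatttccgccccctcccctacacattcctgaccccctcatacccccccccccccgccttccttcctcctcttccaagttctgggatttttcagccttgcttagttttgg

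For Igfbp1, Mt1 and Mt2, elements of other signals were found in the windows. The insulin response sequence, searched as CAAAACA or CAAAATA, occurred at least once in 10.2% of windows and 2 or more times in 1.10%. The Igfbp1 window held 2, from -108 to -102 and from -97 to -91. The metal response element, searched as TGCACNC or TGCGCNC, occurred in 25.7% of windows, 3 or more times in 1.97% and 4 or more times in 0.517%. The Mt1 window held 3 and the Mt2 window 4, of which 1 and 3 are upstream of the start. A match is a description of letters and not evidence of binding. The upstream stretches follow, all plus strand, with insulin response sequences (Igfbp1) or metal response elements (Mt1 and Mt2) in capitals: Igfbp1 from chr11:7197537-7197786, Mt1 from chr8:94178839-94179088 and Mt2 from chr8:94172368-94172617.
Igfbp1 upstream: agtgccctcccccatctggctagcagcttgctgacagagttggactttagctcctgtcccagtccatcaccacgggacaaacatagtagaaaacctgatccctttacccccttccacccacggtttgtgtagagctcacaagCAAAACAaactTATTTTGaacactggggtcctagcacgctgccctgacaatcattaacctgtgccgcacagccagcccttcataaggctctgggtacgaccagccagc
Mt1 upstream: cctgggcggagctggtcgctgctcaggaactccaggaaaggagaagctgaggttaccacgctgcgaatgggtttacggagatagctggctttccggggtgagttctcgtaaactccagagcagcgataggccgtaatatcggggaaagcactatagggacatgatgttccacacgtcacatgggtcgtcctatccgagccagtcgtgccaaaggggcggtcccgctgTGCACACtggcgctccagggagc
Mt2 upstream: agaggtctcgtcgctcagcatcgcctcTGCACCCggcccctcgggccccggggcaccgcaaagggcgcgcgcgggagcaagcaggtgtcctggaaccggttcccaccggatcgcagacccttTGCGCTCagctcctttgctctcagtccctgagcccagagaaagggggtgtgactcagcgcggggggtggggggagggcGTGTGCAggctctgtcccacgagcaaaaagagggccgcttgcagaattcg

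No gene of the set passed the test between groups by limma with Benjamini-Hochberg adjustment over all probes. In AAV-hGRB against AAV-GFP, 5 of 9 genes stood higher and 4 lower, where 43.5% of all probes stood higher. Of the 9, 0 passed at an adjusted p of 0.05, where 0% of all probes passed. At an unadjusted p of 0.05 the counts were 0 of 9 genes and 3.35% of all probes. The 9 log2 changes ran from -0.43 to 0.31 with a median of 0.01, beside a median of -0.049 over all probes. In AAV-GFP against PBS, 4 genes stood higher and 5 lower (50.6% of all probes higher), 0 passed with or without adjustment (0% and 1.68% of all probes), and changes ran from -0.75 to 0.41 with a median of -0.02. In AAV-hGRB against PBS, 4 stood higher and 5 lower (42.8% of all probes higher), 0 passed either way (0% and 5.84% of all probes), and changes ran from -0.74 to 0.24, also with a median of -0.02. The arrays of the 2 groups overlapped for all 9 genes in both comparisons with PBS, where 0.94% and 4.59% of all probes did not overlap. A moderated F test over the 3 groups called 0 of the 9 genes with or without adjustment (0% and 3.31% of all probes), with a lowest adjusted p of 0.986. A miss of the threshold does not show equal levels: the 95% interval stayed within 1 log2 unit of 0 for 5, 4 and 5 of the 9 genes in the 3 comparisons.

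**Figure D1:**
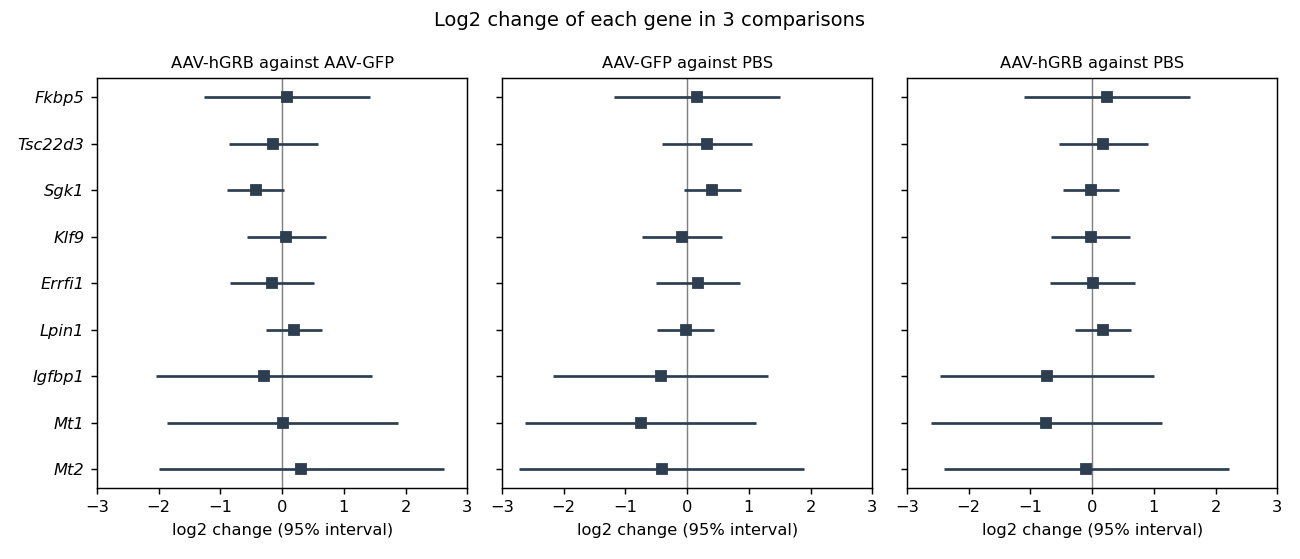
Log2 change of each gene (squares, by its brightest probe) with its 95% interval (lines), with a panel for each of the 3 comparisons. All intervals cross 0; those of Sgk1 and Lpin1 are short, and those of Fkbp5, Igfbp1, Mt1 and Mt2 reach beyond 1 log2 unit on both sides in all 3 panels.

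What set the genes apart from each other was how far they varied between samples of the same group. Pooled over the 3 groups, the SD within groups was 1.72 for Mt2, 1.39 for Mt1, 1.29 for Igfbp1 and 0.99 for Fkbp5. These were larger than in 99.9, 99.3, 98.7 and 92.9% of tested probes. In AAV-hGRB, AAV-GFP and PBS taken singly, the SD was 2.12, 1.86 and 0.98 for Mt2 and 1.76, 0.99 and 1.32 for Mt1. It was 1.56, 1.43 and 0.73 for Igfbp1 and 0.80, 1.32 and 0.74 for Fkbp5. Whether the spread differs between groups was not tested. These values and the spans below are by the brightest probe. For Fkbp5 the SD depended on the probe: it was 0.51 on probe 2 and 1.21 on probe 3, larger than in 59.1 and 97.8% of tested probes. The other 5 genes lay between 0.25 (Sgk1) and 0.49 (Tsc22d3), beside a median of 0.453 over all probes. Sgk1 and Lpin1 (0.26) were low, above only 16.1 and 16.4% of tested probes. From lowest to highest array Mt2 spanned 23.6-fold, Mt1 13.3-fold, Igfbp1 10.9-fold and Fkbp5 8.72-fold, whereas Lpin1 spanned 1.65-fold.

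**Figure D2:**
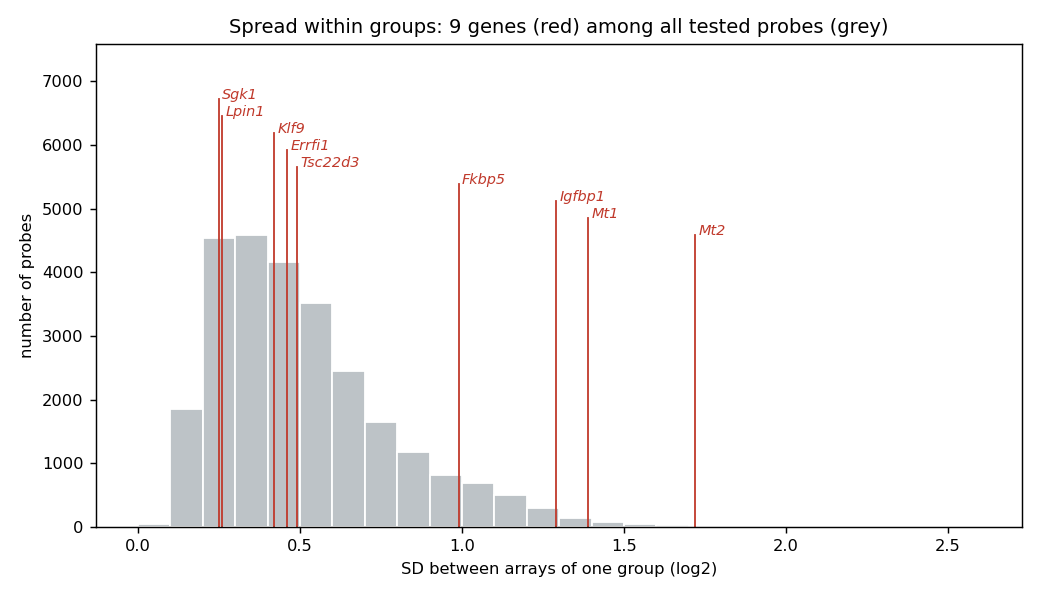
Distribution over the 26593 tested probes of the SD between arrays of a group, pooled over the 3 groups (log2 units, grey bars, number of probes). The SD of each of the 9 genes is a red line, whose height carries no value. Each gene is shown by its brightest probe. Fkbp5, Igfbp1, Mt1 and Mt2 lie in the right tail, at 0.99, 1.29, 1.39 and 1.72.

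Fkbp5, a co-chaperone that lowers the affinity of GR for hormone and so closes a feedback loop, had 3 probes, on chromosome 17 of mm7, the build of the array design. Probe 1, the brightest, is shown because its readings part from those of the other 2 (chr17:26624510-26624569, minus strand).
Fkbp5 probe 1: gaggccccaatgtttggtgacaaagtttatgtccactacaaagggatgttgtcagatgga
Its levels were -0.41, -1.67, -1.77 and -2.30 for AAV-hGRB, -1.59, -2.95, 0.17 and -2.11 for AAV-GFP, and -1.03, -2.03, -1.36 and -2.69 for PBS. The groups overlapped fully, and the highest array was the dimmest of the 12. The log2 change was 0.08 (SE 0.62) in AAV-hGRB against AAV-GFP, 0.16 (SE 0.62) in AAV-GFP against PBS and 0.24 (SE 0.62) in AAV-hGRB against PBS. Probe 3 (chr17:26586393-26586452) gave -3.78, -3.15, -2.36 and -2.42 for AAV-hGRB, -4.15, -2.65, -5.31 and -2.83 for AAV-GFP, and -0.44, -3.36, -3.70 and -3.55 for PBS. On that probe the array highest by probe 1 was the lowest, and PBS replicate 1 was the highest. That lowest reading was not well above background, and the probe was well above it on the other 11 arrays. Its log2 changes were 0.81 (SE 0.75), -0.98 (SE 0.75) and -0.17 (SE 0.75). Probe 2 (chr17:26587108-26587167) gave -0.14, -0.59 and -0.73, so the sign of the Fkbp5 change depends on the probe in all 3 comparisons.

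Array by array, the Fkbp5 probes did not follow each other. Pearson r was 0.08 between probes 1 and 2 (rho -0.17), -0.35 between probes 1 and 3 (rho -0.45) and 0.64 between probes 2 and 3 (rho 0.16), with permutation adjusted p = 0.793, 0.275 and 0.0697 over the 14 pairs of same-gene probes. The other 11 pairs, in Tsc22d3, Klf9, Lpin1 and Mt1, all passed on Pearson r. On ranks, Tsc22d3 probe 3 missed the threshold with probe 1 (rho = 0.35, permutation adjusted p = 0.311) and with probe 2 (rho = 0.43, permutation adjusted p = 0.216). Without the 2 farthest arrays r was -0.05 and 0.36 for these pairs. Fkbp5 probe 1 ran against the array's 75th percentile (r = -0.75, permutation adjusted p = 0.0337 over 18 probes, rho = -0.55, rho adjusted p = 0.244, r = -0.52 without the 2 farthest arrays). Probe 3 ran with it (r = 0.75, permutation adjusted p = 0.0454, rho = 0.83, rho adjusted p = 0.0236, r = 0.61 without the 2 farthest arrays). That percentile is itself subtracted to give the level, so a negative r is partly built in. The permutation test makes no allowance for this. Among all tested probes 32.9% had an r with that percentile beyond 0.7 in size, as did 4 of the 18 probes of the set. Below -0.7 lay 17.0% of all tested probes. The part of array brightness in the Fkbp5 readings was not tested further.

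**Figure D3:**
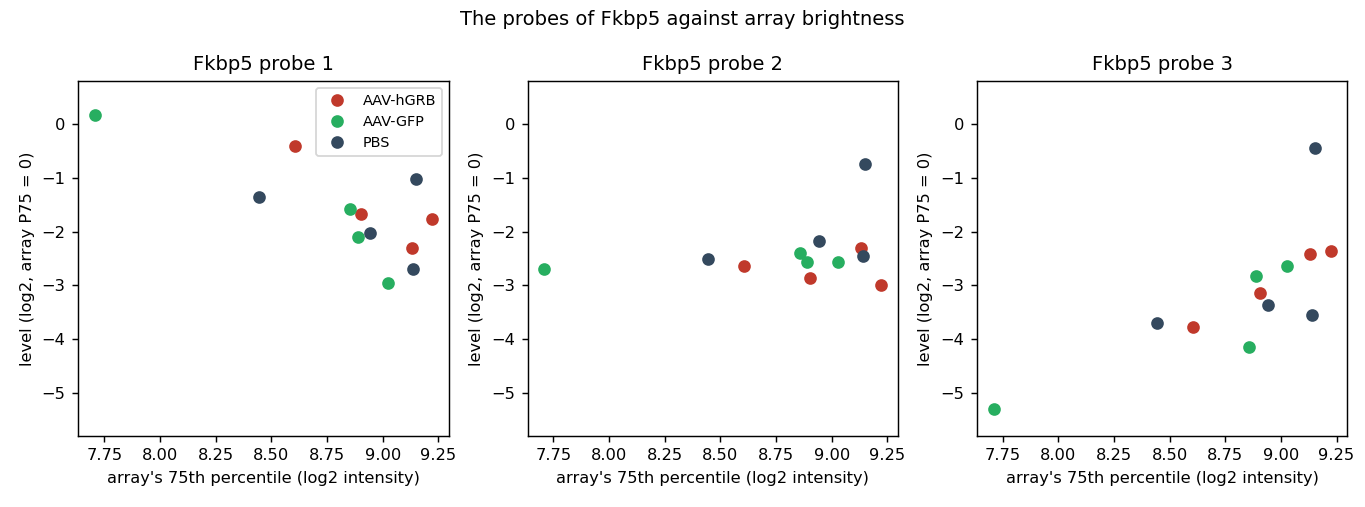
Level of each Fkbp5 probe (log2, 75th percentile of the array set to 0) against the array's 75th percentile (log2 intensity), one point per array, coloured by group. Probe 1 falls with brightness (r = -0.75), probe 3 climbs with it (r = 0.75), and probe 2 shows no clear course (r = 0.26). The dimmest array is highest on probe 1 and lowest on probe 3, where it was not well above background.

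Tsc22d3 encodes GILZ, a leucine zipper protein that restrains inflammatory transcription factors. Its brightest probe (chrX:135258941-135259001, minus strand) gave 4.12, 3.31, 2.80 and 2.68 for AAV-hGRB, 2.94, 3.27, 4.12 and 3.14 for AAV-GFP, and 2.88, 3.15, 3.25 and 2.90 for PBS. AAV-hGRB replicate 1 and AAV-GFP replicate 3 were high, and the other 10 arrays lay between 2.68 and 3.31. The log2 change was -0.14 (SE 0.33) in AAV-hGRB against AAV-GFP, 0.32 (SE 0.33) in AAV-GFP against PBS and 0.18 (SE 0.33) in AAV-hGRB against PBS. Those 2 arrays are also the highest for Fkbp5 probe 1. The Tsc22d3 probe too ran against array brightness (r = -0.81, permutation adjusted p = 0.0283, rho = -0.76, rho adjusted p = 0.0508, r = -0.86 without the 2 farthest arrays). The other 2 Tsc22d3 probes had log2 changes from -0.09 to 0.11 over the 3 comparisons.

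Klf9, a zinc finger repressor that also joins hormone signals to the circadian clock, had 2 probes on chromosome 19. By the brighter (chr19:22862974-22863033, plus strand) it stood at 1.71, 1.60, 2.11 and 2.12 for AAV-hGRB, 2.45, 1.59, 0.97 and 2.26 for AAV-GFP, and 1.79, 1.83, 1.98 and 2.01 for PBS. AAV-GFP arrays were the most scattered and enclosed both other groups. Their lowest value, 0.97, came from replicate 3, the dimmest array. With the array's 75th percentile r was 0.64 (rho = 0.22, permutation adjusted p = 0.107, r = 0.12 without the 2 farthest arrays). The changes were 0.07 (SE 0.30), -0.09 (SE 0.30) and -0.02 (SE 0.30). The dimmer probe gave 0.43 (SE 0.35), 0.03 (SE 0.35) and 0.46 (SE 0.35), and the 2 probes ran together over the arrays (r = 0.89, rho = 0.83, permutation adjusted p = 0.00101 and 0.00378, r = 0.67 without the 2 farthest arrays).

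Sgk1, a kinase that acts on ion channels and on FOXO factors, was the only gene of the 9 whose arrays did not overlap between 2 groups. Its tested probe (chr10:21732425-21732484, plus strand) stood at 1.77, 1.36, 1.45 and 1.70 for AAV-hGRB, 1.88, 2.01, 2.17 and 1.93 for AAV-GFP, and 1.05, 1.70, 1.69 and 1.92 for PBS. Every AAV-hGRB array lay below every AAV-GFP array, and both groups overlapped with PBS. Over all probes, 2.98% did not overlap in AAV-hGRB against AAV-GFP in either direction, and 1.94% in the direction of Sgk1, so 1 gene of 9 cannot be read as particular to the set. The log2 change was -0.43 (SE 0.21, 95% interval -0.89 to 0.03, limma adjusted p = 0.998). In AAV-GFP against PBS it was 0.41 (SE 0.21, -0.05 to 0.87, adjusted p = 0.999), and in AAV-hGRB against PBS -0.02 (SE 0.21, -0.48 to 0.44). The AAV-GFP mean was thus the highest of the 3, although PBS replicate 4 (1.92) exceeded AAV-GFP replicate 1 (1.88), and the 2 comparisons share the AAV-GFP arrays. Within the slides that hold both groups, AAV-hGRB minus AAV-GFP was -0.25 (slide 5) and -0.72 (slide 6), with 1 array a group. A second Sgk1 probe, from a cDNA clone and lying upstream (chr10:21631585-21631644), was well above background on 0 of 12 arrays and was not tested.

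Errfi1 encodes an inhibitor of the EGF receptor. By its probe (chr4:149857959-149858018, plus strand) it stood at 5.35, 5.83, 5.65 and 5.22 for AAV-hGRB, 6.39, 5.27, 4.98 and 6.05 for AAV-GFP, and 5.50, 5.48, 5.10 and 5.94 for PBS. The AAV-GFP arrays again held both the highest and the lowest value, the lowest again from replicate 3, the dimmest array. Changes were -0.16 (SE 0.31), 0.17 (SE 0.31) and 0.01 (SE 0.31).

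Lpin1 encodes a phosphatidate phosphatase that makes diacylglycerol and also assists transcription of fat-burning genes. From its lowest to its highest array it spanned the fewest log2 units of the 9 genes. Its brightest probe (chr12:16591654-16591713, minus strand) gave 0.90, 1.48, 1.14 and 1.39 for AAV-hGRB, 0.89, 1.06, 0.86 and 1.32 for AAV-GFP, and 1.21, 1.37, 0.87 and 0.75 for PBS. The log2 change was 0.20 (SE 0.21, 95% interval -0.26 to 0.65) in AAV-hGRB against AAV-GFP, -0.02 (SE 0.21, -0.48 to 0.44) in AAV-GFP against PBS and 0.18 (SE 0.21, -0.28 to 0.63) in AAV-hGRB against PBS. Its 4 probes, of which the first and the fourth overlap on chromosome 12, gave 0.20 to 0.32 in the first comparison and followed each other with r from 0.80 to 0.97.

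**Figure D4:**
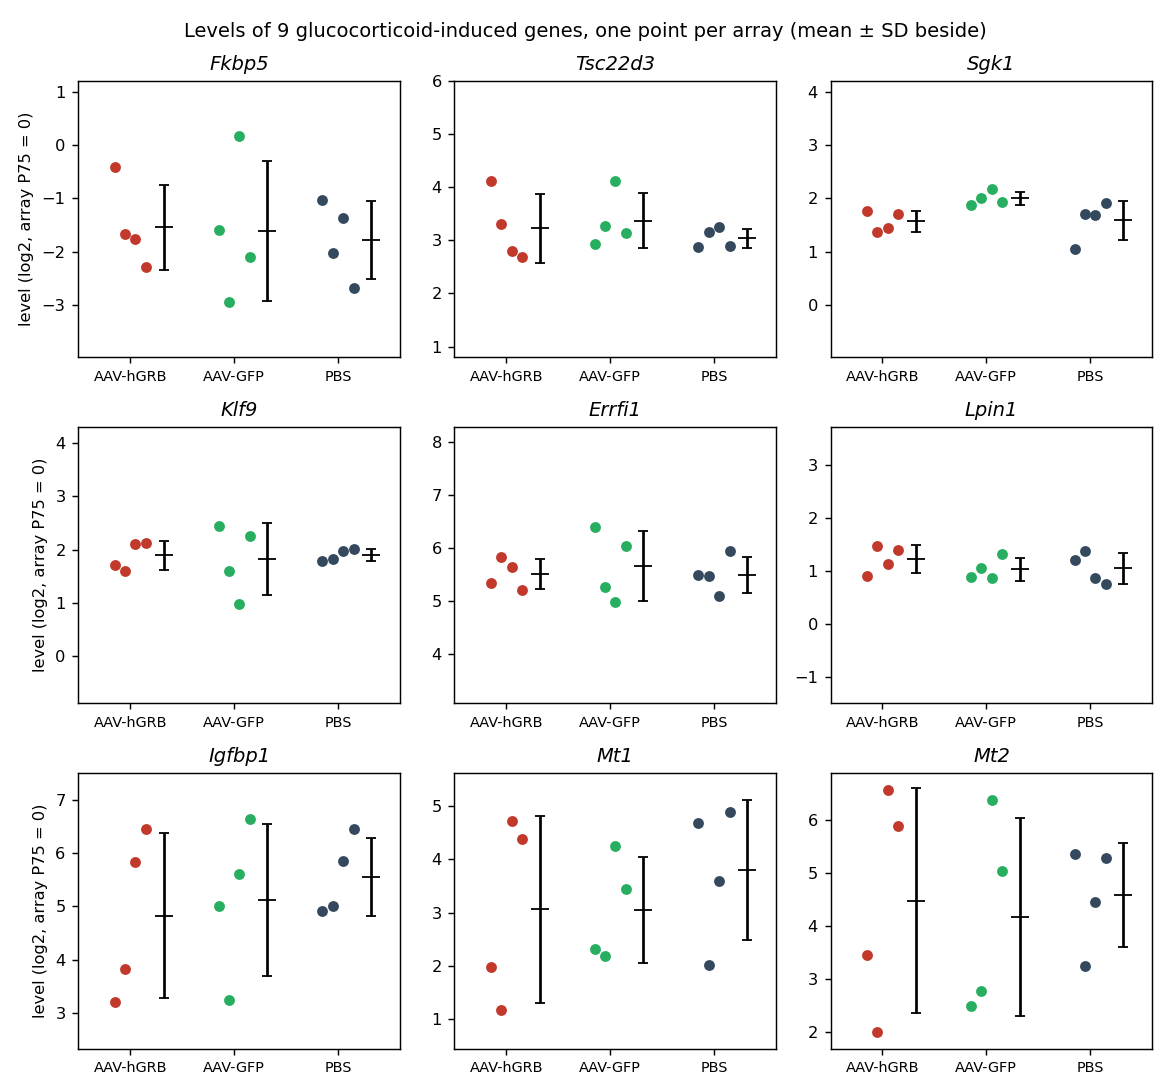
Level of each of the 9 genes by its brightest probe (log2, 75th percentile of the array set to 0), one point per array in AAV-hGRB, AAV-GFP and PBS, with the group mean and SD beside the points. Every panel spans the same number of log2 units. The groups overlap in all panels except AAV-hGRB and AAV-GFP for Sgk1, and Igfbp1, Mt1 and Mt2 are the most scattered.

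Igfbp1, an insulin-suppressed protein that the liver secretes and that binds IGF, had 1 probe (chr11:7154447-7154506, plus strand). Its levels were 3.20, 3.82, 5.84 and 6.45 for AAV-hGRB, 5.01, 3.23, 5.62 and 6.64 for AAV-GFP, and 4.91, 5.0, 5.86 and 6.45 for PBS. Only AAV-hGRB replicates 1 and 2 and AAV-GFP replicate 2 lay below 4.91, the lowest PBS value. The changes were -0.30 (SE 0.80) in AAV-hGRB against AAV-GFP, -0.43 (SE 0.80) in AAV-GFP against PBS and -0.73 (SE 0.80, 95% interval -2.47 to 1.01) in AAV-hGRB against PBS. Within slide 5 AAV-hGRB and AAV-GFP stood 3.25 and 3.22 log2 units below PBS, while in slide 6 the differences from PBS were -0.02 and -0.24. Both slide 5 differences rest on 1 PBS array, replicate 4, the highest of its group, and on slide 1 AAV-GFP minus PBS was 0. The sources used here do not name the feeding state or the time of day at collection.

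Mt1 and Mt2 encode the small cysteine-rich metallothioneins, which bind zinc and copper. Mt1 was read by 2 probes. The brighter (chr8:92769155-92769214, plus strand), printed on 10 spots of each array, is shown because its GC content of 68.3% is the highest of the 19 probes.
Mt1 probe 1: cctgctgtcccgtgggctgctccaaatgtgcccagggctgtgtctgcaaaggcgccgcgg
It gave 1.97, 1.17, 4.72 and 4.39 for AAV-hGRB, 2.32, 2.18, 4.26 and 3.45 for AAV-GFP, and 4.69, 2.01, 3.60 and 4.90 for PBS. The Mt2 probe (chr8:92762515-92762574, plus strand) gave 3.46, 2.01, 6.57 and 5.89 for AAV-hGRB, 2.50, 2.77, 6.37 and 5.04 for AAV-GFP, and 5.35, 3.24, 4.46 and 5.28 for PBS. In each group low and high arrays stood side by side, and the intervals are wide. Mt1 had a log2 change of 0.01 (SE 0.86, 95% interval -1.86 to 1.88) in AAV-hGRB against AAV-GFP, -0.75 (SE 0.86) in AAV-GFP against PBS and -0.74 (SE 0.86) in AAV-hGRB against PBS. For Mt2 the changes were 0.31 (SE 1.06, -1.99 to 2.62), -0.41 (SE 1.06) and -0.10 (SE 1.06). A 2-fold effect on either gene lies inside the intervals of all 3 comparisons.

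The 2 metallothioneins ran together over the arrays. Pearson r between Mt1 and Mt2 was 0.93 (permutation adjusted p = 0.00288 over the 36 pairs of genes of the set) and 0.90 without the 2 farthest arrays. On ranks the pair missed the threshold (rho = 0.83, permutation adjusted p = 0.0587). On values centred by group r was 0.95, and leaving out each array in turn gave 0.90 to 0.94. The probes of Mt1 and Mt2 share no run longer than 5 bases. Whether a probe also reads the transcript of the other gene was not tested. The 2 probes of Mt1 followed each other less closely, with r = 0.73 (rho = 0.73, r = 0.64 without the 2 farthest arrays). The 5 arrays lowest in Mt1 were also the 5 lowest in Mt2: AAV-hGRB replicates 1 and 2, AAV-GFP replicates 1 and 2, and PBS replicate 2. Each group thus held arrays among these 5 and outside them. For Mt2, PBS spanned less of the range (3.24 to 5.35) than AAV-hGRB (2.01 to 6.57) or AAV-GFP (2.50 to 6.37). The widest step between neighbouring arrays followed these 5 in both genes, at 30.3% of the range for Mt1 and 21.9% for Mt2, and whether the arrays form separate sets was not tested. Igfbp1 gave r = 0.74 with Mt1 (rho = 0.64, permutation adjusted p = 0.0821 and 0.199) and r = 0.71 with Mt2 (rho = 0.52, permutation adjusted p = 0.0821 and 0.429), both short of the threshold. Without the 2 farthest arrays r was 0.69 for either pair. The 3 arrays lowest in Igfbp1, which lie below its own widest step from 3.82 to 4.91, were all among those 5.

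**Figure D5:**
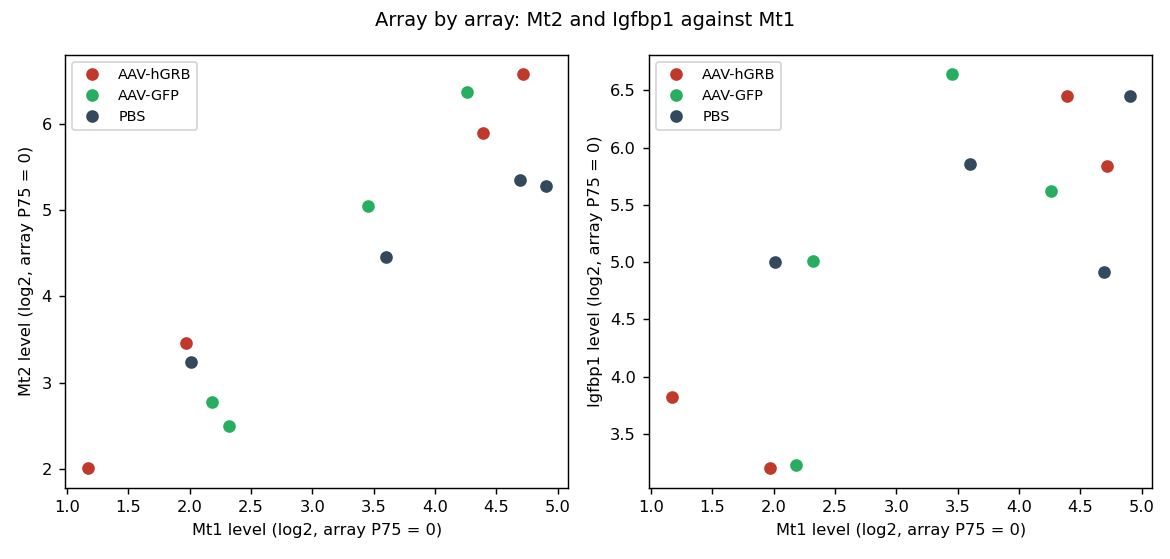
Level of Mt2 (left) and of Igfbp1 (right) against that of Mt1 on the same array (log2, 75th percentile of the array set to 0), one point per array, coloured by group. On the left the points climb together (r = 0.93), and PBS spans less of the Mt2 range than either vector group. On the right the climb is looser (r = 0.74).

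Array brightness and slide were set beside these levels. The log2 75th percentile of the 5 arrays lowest in Mt1 ran from 8.605 to 9.026, inside the range of the other 7, which ran from 7.709 to 9.223. Over all 12 arrays r with that percentile was 0.07 for Mt1 (rho = 0.51) and -0.11 for Mt2 (rho = 0.31). The permutation adjusted p of r was 0.912 for each. Without the 2 arrays farthest in brightness, however, r was 0.76 for Mt1 and 0.66 for Mt2. The part of brightness in these levels was not tested further. Both arrays of slide 1 were among the 5, and none of the 3 arrays of slide 6, 1 from each group, was. Slide 3 held 1 of the 5 and 1 other array, both AAV-hGRB, slide 5 held 2 of the 5 and 1 other, and slides 2 and 4 held 1 other array each. With at most 3 arrays a slide, r could not be taken within slides, and the part of slide in these levels was not tested. The dimmer Mt1 probe (chr8:92768988-92769047, plus strand) gave -3.24, -3.42, -0.03 and -2.10 for AAV-hGRB, -2.40, -3.44, -1.30 and -3.43 for AAV-GFP, and -1.27, -2.45, -1.27 and -2.09 for PBS. It placed the same 5 arrays at -2.40 or below, and AAV-GFP replicate 4 with them. Its log2 changes were 0.45 (SE 0.70), -0.87 (SE 0.70) and -0.43 (SE 0.70).

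Among the 36 pairs of genes of the set, 1 passed a permutation test of Pearson r after adjustment, the pair Mt1 and Mt2, and 6 had an unadjusted p under 0.05. Beside the 2 pairs with Igfbp1, Tsc22d3 and Klf9 ran in opposite directions (r = -0.72, rho = -0.73, permutation adjusted p = 0.0821 and 0.171, r = -0.51 without the 2 farthest arrays), short of the threshold. Fkbp5 and Tsc22d3 gave r = 0.71 (rho = 0.43, permutation adjusted p = 0.0821 and 0.555), which was -0.04 without the 2 farthest arrays and so rests on them. Klf9 and Errfi1 gave r = 0.66 (rho = 0.57, permutation adjusted p = 0.104 and 0.356), which was 0.28 without them.

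Other genes known to be induced by glucocorticoids were counted for comparison, from a list of 25 on the array, 24 of them tested. In AAV-hGRB against AAV-GFP 9 stood higher and 15 lower, with a median log2 change of -0.19 and 0 past the adjusted threshold. The counts were 13 and 11 (median 0.03) in AAV-GFP against PBS and 11 and 13 (median -0.01) in AAV-hGRB against PBS, again with 0 past it. Per1, a clock gene with a GR element, stood at log2 changes of -0.33 (SE 0.55), 0.11 (SE 0.55) and -0.21 (SE 0.55), and Dusp1, a phosphatase that switches off MAP kinases, at -0.42 (SE 0.73), 0.54 (SE 0.73) and 0.12 (SE 0.73). AAV-GFP had the highest mean of the 3 groups, as for Sgk1, in 9 of the 24 genes, the lowest in 6 and neither in 9. G6pc, the last enzyme of glucose release, was among the 9, with means of 4.76 for AAV-hGRB, 6.14 for AAV-GFP and 4.84 for PBS. Pck1, the enzyme that commits to gluconeogenesis, averaged 7.76, 8.37 and 7.66, and Angptl4, an inhibitor of lipoprotein lipase, 6.23, 7.25 and 6.15. Tat, which breaks down tyrosine, averaged 6.77, 7.52 and 7.23, and Cdkn1a, the cell cycle inhibitor p21, 0.04, -1.84 and -1.57. None of these passed (limma adjusted p = 0.965 for Cdkn1a and 0.998 for the rest in AAV-hGRB against AAV-GFP).

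Over the 12 arrays, the genes of the set were also set against the mean level of each list, in 162 relations, of which 0 passed adjustment and 11 had an unadjusted p under 0.05. The mean of the other glucocorticoid-induced genes ran with Fkbp5 (r = 0.82, rho = 0.72, r = 0.62 without the 2 farthest arrays) and with Tsc22d3 (r = 0.77, rho = 0.72, r = 0.53 without them), each at a permutation adjusted p = 0.114. It ran the other way from Klf9 (r = -0.76, rho = -0.66, permutation adjusted p = 0.314, r = -0.37 without the 2 farthest arrays) and Errfi1 (r = -0.59, rho = -0.61, permutation adjusted p = 0.655, r = -0.70 without them), and its r with the other 5 genes lay between -0.26 and 0.27. The set thus did not follow this list with a common sign. Fkbp5 against the hepatocyte markers (r = -0.81, rho = -0.73, r = -0.74 without the 2 farthest arrays) and Mt1 against the acute phase genes (r = 0.76, rho = 0.80, r = 0.74 without them) had the same permutation adjusted p = 0.114.

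Genes of the signals that act on Igfbp1 and the metallothioneins were counted too. Of 17 zinc and metal handling genes, 4, 6 and 5 stood higher in the 3 comparisons, and 0 passed. Mtf1, the zinc sensor that switches on metallothioneins, had log2 changes of -0.02 (SE 0.20), 0.15 (SE 0.20) and 0.13 (SE 0.20). Slc30a1, a zinc exporter under the same sensor, had 0.02 (SE 0.32), -0.13 (SE 0.32) and -0.11 (SE 0.32). Of 19 tested insulin, FOXO and fasting genes (Irs2 was matched to no probe) 5, 11 and 7 stood higher and 0 passed. Igf1, the growth factor that Igfbp1 binds, had log2 changes of -0.53 (SE 0.27), 0.40 (SE 0.27) and -0.13 (SE 0.27). Metallothioneins are also acute phase genes. Of 16 acute phase and STAT3 genes 8, 5 and 7 stood higher and 0 passed. Of 14 circadian clock genes 6, 7 and 5 stood higher, and of 14 immediate early and heat shock genes 5, 9 and 7, with 0 past the threshold in either list.

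Interferon-induced genes and markers of other cells were read on the same arrays, and no gene of these lists passed the adjusted threshold in any of the 3 comparisons. All 24 interferon-induced genes stood higher in AAV-hGRB than in AAV-GFP (median 1.47), whereas the 9 genes of the set had a median of 0.01. Marker levels were summed per array in units of the array's 75th percentile and are given as ranges in the order AAV-hGRB, AAV-GFP and PBS. The 11 Kupffer cell and macrophage markers summed to 111 to 233, 96.2 to 192 and 46.9 to 171. Of these markers 11, 10 and 11 stood higher in the 3 comparisons (median log2 change 0.34, 0.14 and 0.57). The 5 tested erythroid markers summed to 144 to 184, 224 to 251 and 121 to 485, so AAV-hGRB and AAV-GFP did not overlap, and in AAV-hGRB against AAV-GFP 0 of the 5 stood higher and 5 lower (median -0.55). The 6 tested adipocyte markers summed to 57.0 to 160, 38.9 to 202 and 36.3 to 489, the widest relative range being within PBS. The 10 tested T cell and NK cell markers summed to 6.26 to 15.1, 4.50 to 8.20 and 3.08 to 7.46. Of these 10, 9, 2 and 7 stood higher in the 3 comparisons (median log2 change 0.56, -0.10 and 0.47). Cd8a, not tested, was well above background on 3 arrays. The 4 tested neutrophil markers summed to 4.2 to 9.59, 1.86 to 5.98 and 6.72 to 9.25, so AAV-GFP and PBS did not overlap. In AAV-GFP against PBS 0 of the 4 stood higher and 4 lower (median -1.13). Of the neutrophil markers not tested, Elane, Ngp and Camp were well above background on 2 arrays each. The 6 tested B cell markers summed to 1.29 to 2.36, 0.948 to 2.18 and 0.845 to 2.54, and the 4 tested acinar markers to 0.821 to 1.36, 0.61 to 1.76 and 1.04 to 2.97. The sums of endothelial (8), stellate (9) and cholangiocyte (7) markers overlapped between all groups, at 27.7 to 34.0, 75.1 to 103 and 25.6 to 119 in AAV-hGRB. By mean log2 level, the cholangiocyte markers were lower in every AAV-hGRB array (-0.682 to -0.434) than in every PBS array (-0.388 to -0.203). AAV-GFP overlapped both. The 10 hepatocyte markers summed to 4410 to 5540, 4810 to 6960 and 4360 to 6010. Of the 162 relations above, which include these marker lists, 0 passed adjustment. Lpin1 ran against the erythroid markers (r = -0.72, rho = -0.72, permutation adjusted p = 0.283, r = -0.62 without the 2 farthest arrays). With the neutrophil markers r was 0.59 for Mt1 and 0.52 for Mt2 (permutation adjusted p = 0.683 and 0.76). Those 2 values were 0.79 and 0.89 when centred by group, and 0.56 and 0.32 without the 2 farthest arrays. Beyond these relations, the part of these cells in the levels of the set was not tested.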

How the data were processed

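Per the file headers, the scanner intensity values were made by the authors with Agilent Feature Extraction 9.5.3.1 (9.5 per the submitters' processing notes), which subtracted local background. The series matrix the authors deposited holds the same intensity on a linear scale: all 540216 values equal the scanner files' within a relative 1e-06. Per array, 43379 non-control spots gave 41174 probes after spots of a probe were averaged and outlier spots left out. From log2 intensity the array's 75th percentile was subtracted, and 26593 probes well above background on at least 4 of 12 arrays were tested. The number of arrays, 4 a group, limits the precision. RefSeq accessions named 22951 probes through their systematic name and 131 through a further accession; the remaining 18092 carry the design's name. A gene's brightest probe stands for it. Probe coordinates are on mm7, with no annotation of exons used, and promoter windows are RefSeq's on GRCm38.p6.

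A limma 3.58.1 fit (R 4.3.3) with 3 groups and 9 residual degrees of freedom gave two-sided tests with Benjamini-Hochberg adjustment over all probes. Correlations used 100000 permutations (two-sided, numpy 2.4.6), with the smallest p at 1e-05, adjusted within each family. The fit was checked on simulated data. The genes and lists were chosen with earlier results of these data known. The rule for further names took each gene's closest neighbour by r, a few fixed genes per list, and list genes with an unadjusted p under 0.01. Alternatives covered background correction, scaling, filters, slide, replicate number, array weights, brightness, the choice of probe and leaving out each array. Scan days were 2, with AAV-GFP replicate 4 alone on the second.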

Additional observations from a re-analysis of the deposited data

Results flagged for a closer look

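By Dixon's test in groups of 4, 2 of the 54 groups of probe levels held an array far from the other 3, where chance gives about 1 in 20. PBS replicate 1 stood at -0.44 on Fkbp5 probe 3, with the nearest other PBS array at -3.36. AAV-hGRB replicate 1 stood at 0.13 on Lpin1 probe 3, with the nearest other AAV-hGRB array at 1.14.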

How the results depend on the processing

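Over 636 alternative values of the 27 changes (9 genes, 3 comparisons), 0 were called, and the lowest adjusted p was 0.41. The sign turned in 89 of them and in none for 7 of the 27, among them Sgk1 in AAV-hGRB against AAV-GFP (-0.50 to -0.36) and in AAV-GFP against PBS (0.23 to 0.52). The cause of the turns was not tested. Counts of called probes stayed at 0 except with array weights, which called 67 in AAV-hGRB against PBS and 7 by the F test, none of them a gene of the set. The count of pairs stayed at 1. The replicate block called 0 probes in each comparison, with 884, 459 and 1604 at an unadjusted p under 0.05 against 892, 448 and 1553 without it. Same-numbered samples of different groups correlated at -0.43 to 0.59 in their deviations, with 5 of 12 pairs above 0.1. Different-numbered samples gave -0.52 to 0.61, with 14 of 36 pairs above 0.1. The numbers thus gave no sign of pairing, though this cannot exclude a paired design.

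In AAV-hGRB against AAV-GFP the turned values were -0.07 (Klf9) and -0.08 (Mt1) with normexp, -0.01 (Fkbp5) and 0.04 (Errfi1) with quantile normalization, and 0.15 (Errfi1) and -0.10 (Mt1) with slide as a block. Array weights gave 0.01 (Tsc22d3), -0.25 (Klf9) and -0.16 (Mt1), and the 75th percentile as a covariate, added after seeing the data, 0.19, -0.16 and -0.02 for the same genes. In AAV-GFP against PBS, median scaling gave 0.03 (Lpin1) and array weights -0.26 (Fkbp5), 0.22 (Klf9), 0.18 (Igfbp1), 0.02 (Mt1) and 0.09 (Mt2). The covariate gave -0.40 (Fkbp5), 0.11 (Klf9) and 0.05 (Lpin1), and the mean of all probes -0.47 (Fkbp5). In AAV-hGRB against PBS, normexp gave -0.12 (Errfi1), quantile normalization 0.01 (Sgk1), 0.02 (Klf9) and 0.02 (Mt2), and median scaling 0.03 (Sgk1) and 0.03 (Klf9). The percentile over probes detected on all arrays gave 0.02 (Sgk1) and 0.02 (Klf9), slide as a block 0.13 (Klf9) and 0.08 (Mt2), array weights 0.16 (Mt2), the covariate -0.02 (Errfi1), and the mean of all probes -0.22 (Fkbp5) and 0.22 (Klf9).

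Leaving out each array in turn turned the sign of 19 of the 27 changes. Their ranges were, in AAV-hGRB against AAV-GFP, -0.36 to 0.68 (Fkbp5), -0.44 to 0.11 (Tsc22d3), -0.22 to 0.28 (Klf9), -0.40 to 0.08 (Errfi1), -0.93 to 0.24 (Igfbp1), -0.54 to 0.64 (Mt1) and -0.38 to 1.14 (Mt2). In AAV-GFP against PBS it gave -0.44 to 0.60 (Fkbp5), -0.30 to 0.20 (Klf9), -0.07 to 0.40 (Errfi1), -0.12 to 0.09 (Lpin1), -0.94 to 0.20 (Igfbp1) and -1.15 to 0.14 (Mt2). In AAV-hGRB against PBS it gave -0.13 to 0.49 (Fkbp5), -0.11 to 0.37 (Tsc22d3), -0.20 to 0.09 (Sgk1), -0.10 to 0.08 (Klf9), -0.13 to 0.15 (Errfi1) and -0.79 to 0.73 (Mt2). Of the other 8, those not given above ran from 0.11 to 0.30 (Lpin1) in AAV-hGRB against AAV-GFP, 0.07 to 0.47 (Tsc22d3) and -1.35 to -0.39 (Mt1) in AAV-GFP against PBS, and 0.08 to 0.28 (Lpin1), -1.27 to -0.19 (Igfbp1) and -1.34 to -0.11 (Mt1) in AAV-hGRB against PBS.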

Other observations

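For each gene of the set, the gene outside it with the highest Pearson r over the 12 arrays was sought among 14095 genes, as a description of these arrays. The nearest to Fkbp5 was Hectd2 (r = 0.975) and to Tsc22d3 Ppp4r3a (r = 0.962), and their own r with the array's 75th percentile was -0.80 and -0.86. Sgk1 ran closest to Cyp2c23 (r = 0.940), Klf9 to Uaca (r = 0.935), Errfi1 to Slc25a22 (r = 0.878), Lpin1 to Tubgcp4 (r = 0.812) and Igfbp1 to Samd4 (r = 0.893). Mt1 and Mt2 had the same nearest gene, Cdh10 (r = 0.919 and 0.888), a dim probe detected above background on 4 arrays. Each r is the highest of a search over all these genes and carries no test.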
